A study of Homo sapiens with 6 samples.

Results

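Keratins and the other intermediate filament genes were examined on 6 single-colour expression arrays of MDA-MB-231, a line of human breast cancer cells with basal and mesenchymal features. Members were the probe sets, groups of probes for a transcript, whose only gene symbol in the platform annotation is 1 of 39 listed genes, 26 of them keratins. Of these 39 genes, 33 had such a probe set, with 54 probe sets among the 54613 on the array that are not controls. The other 6 (KRT6A, KRT6B, KRT17, KRT34, KRT81 and KRT86) had none and were not analysed as members here. There were 3 arrays of cells carrying a lentivirus for enhanced green fluorescent protein (GFP) alone, called the GFP control, and 3 arrays labelled GATA3, whose lentivirus carried GATA3 together with GFP. All cells were sorted for GFP, grown in medium with 10% serum and harvested 2 days after seeding. The populations are sorted pools of a single cell line, and the promoter that drives GATA3 is not given in the sources used here. The labels do not say that the 3 arrays of a group came from separate cultures, so p-values measure the spread between arrays, which may be technical.

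Intermediate filaments are rope-like polymers that give cells mechanical strength. Keratins form them in epithelia as obligate pairs of an acidic type I and a basic type II chain, and which pair is made marks the kind of epithelium. Simple epithelia such as the luminal layer of the mammary gland make KRT8 with KRT18, joined by KRT7 and KRT19, whereas basal and myoepithelial cells make KRT5 with KRT14. Vimentin is the type III filament of mesenchymal cells, neurofilaments and nestin belong to type IV, and the lamins line the nucleus in every cell.

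GATA3 itself, used to check the labels, went against them. Its brightest probe set, 209604_s_at, read 9.37, 9.35 and 9.45 on the GFP control arrays and 7.93, 7.94 and 7.32 on the arrays labelled GATA3. It was thus lower on every array labelled GATA3 (log2 change -1.66, SE 0.18, adjusted p 0.00238 by limma with Benjamini-Hochberg adjustment). Probe set 209602_s_at was lower as well (-1.48, adjusted p 0.00444). Probe sequences were not used here, so whether either reads the introduced GATA3 is not known. All directions below rest on the array labels and would be turned if the labels of the groups had been exchanged, which was not tested. Levels are given as GCRMA values on a log2 scale, with a common floor of 2.16, and 4 was taken as the detection level. A probe set was tested when over 4 on at least 3 of the 6 arrays. Of 10814 genes tested by their brightest probe set, 29.3% passed an adjusted p of 0.05, 14.8% higher and 14.5% lower, and the median log2 change was -0.02. GATA3 replicate 3 stood apart. It alone has the second raw-file date, and its correlation with the other arrays of its group was 0.984 and 0.986. On it alone 257 probe sets lay over 4, against 46 to 109 for each other array. Its 75th percentile was 7.78, against 7.97 to 8.04 on the other arrays. All 10 genes of a list for the MDA-MB-231 character (among them CD44, AXL, CAV1 and MSN) were over the detection level, and 2 were higher (EGFR, CAV2) and 3 lower (HMGA2 1.85-fold, FOSL1 1.64-fold, MSN), with a list median of 13.4 on each GFP control array and 13.2 to 13.6 on those labelled GATA3. Markers of other cell types were in part under that level on every array. This held for 7 of 10 for fibroblasts, 7 of 8 for leukocytes, 8 of 10 for endothelium and 9 of 10 for muscle. It held for 5 of 10 for neural cells and 5 of 10 for luminal breast cells, among the latter FOXA1 and PGR. Others were bright in both groups. Mean levels in the GFP control and the arrays labelled GATA3 were 14.00 and 14.04 for the neural gene TUBB3. They were 10.01 and 9.94 for TNNT1 of muscle, and 8.81 and 8.67 for CD74 of leukocytes. The median of the luminal list was 3.64 to 3.88 over all 6 arrays, and that of the fibroblast list 2.22 in the GFP control and 2.25 to 2.28 in those labelled GATA3, although its member LUM rose at least 125-fold (adjusted p 4.25e-06). Single markers moved in other lists too: the luminal genes AGR2 and MLPH were 6.18-fold lower (adjusted p 0.000566) and 1.27-fold higher (adjusted p 0.00868), and the endothelial gene ROBO4 was 4.39-fold lower (adjusted p 0.000224). Their part in the results was not tested.

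Of the 33 members with a probe set, 14 could be tested, and 7 of them were higher, 4 lower and 3 not past the threshold in the arrays labelled GATA3. The 11 that passed are 78.6% of those tested, against 29.3% of all genes tested, and in 11 the groups did not overlap, against 49.5% of all genes. KRT14 was tested only because it was bright in the arrays labelled GATA3, so these shares hold for tested members alone. The members were also chosen with earlier results of these data known, so an excess over all genes is no independent evidence. All 6 keratins that passed rose, and no keratin fell. The 4 lower were the 3 lamins, by their brightest probe set, and vimentin. Of these, LMNB1 alone passed in every fit with 1 array left out, and the probe sets of LMNA disagreed. Changes of at least 2-fold were seen in 3 of the 14 (21.4%), KRT14, KRT19 and LMNB1, against 7.28% of all genes tested. The limit given above for KRT14 applies to this share too. LMNB1 lay at the cut-off, 2.01-fold lower. Over its 16 alternatives its log2 change ranged from -1.15 to -0.90, so in some it fell short of 2-fold. That of KRT19 ranged from 1.02 to 1.19 and did not. In bulk samples, a change in the share of cells that make a transcript and a change in transcript per cell cannot be told apart.

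**Figure D1:**
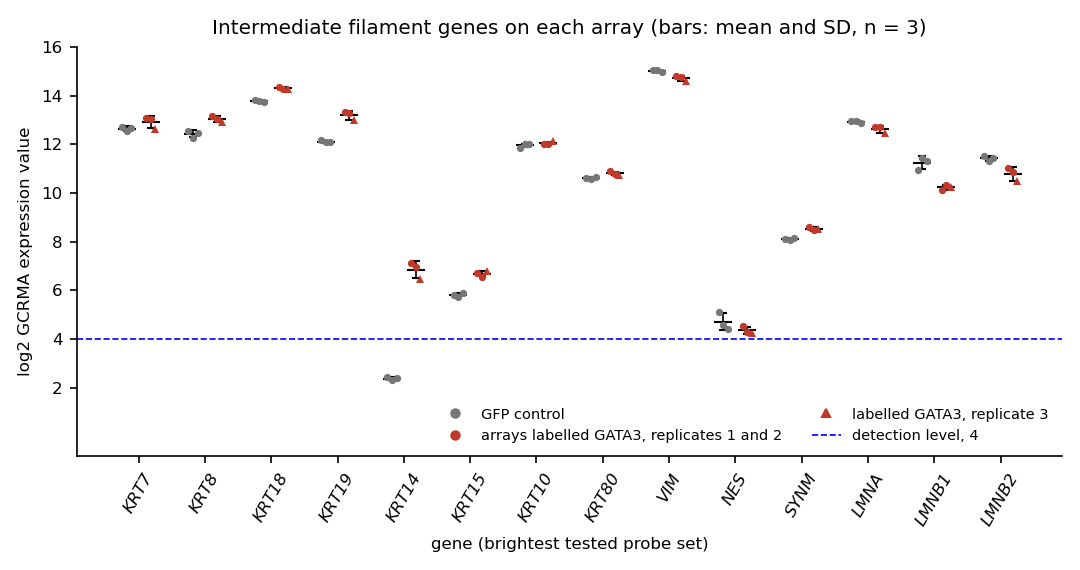
Level of the 14 tested members on each array as log2 GCRMA expression value (vertical axis, floor 2.16), by the brightest tested probe set of each gene; grey points are the GFP control, red points the arrays labelled GATA3 (triangle, replicate 3), bars the mean and SD of 3 arrays, and the dashed line the detection level of 4. KRT14 lies under the line in the GFP control and at 6.49 to 7.13 in the arrays labelled GATA3, while the shifts of the other genes are at most 1.08 on this scale.

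The luminal pair KRT8 and KRT18 rose together. KRT8, the type II chain, read 12.55, 12.26 and 12.48 in the GFP control and 13.16, 13.05 and 12.90 in the arrays labelled GATA3. Every array labelled GATA3 was above every control array (log2 change 0.60, SE 0.10, 1.52-fold, adjusted p 0.00908). KRT18, its type I partner, read 13.82, 13.78 and 13.72 in the control and 14.35, 14.27 and 14.27 in the arrays labelled GATA3. These groups also lay apart, with a smaller spread (log2 change 0.52, SE 0.04, 1.44-fold, adjusted p 0.000503). The 95% intervals of both changes, 0.36 to 0.85 for KRT8 and 0.43 to 0.62 for KRT18, overlapped. KRT8 and KRT18 adjoin each other in the gene order of RefSeq, although every other type I keratin listed here lies in a separate cluster. Both probe sets carry a suffix for probes that can match other transcripts, and both genes have processed pseudogenes, so part of either signal may come from a near-identical copy.

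KRT19, a type I keratin of simple epithelia that is widely used as a marker of luminal tumour cells, rose more. Its probe set 201650_at read 12.16, 12.09 and 12.10 in the GFP control and 13.32, 13.29 and 12.98 in the arrays labelled GATA3. The lowest array labelled GATA3 exceeded the highest control by 0.82 (log2 change 1.08, SE 0.10, 2.12-fold, adjusted p 0.00110). A further KRT19 probe set, 228491_at, read 2.18 on 5 arrays and 4.57 on GATA3 replicate 3, and was not tested. KRT7, a type II keratin of glandular and ductal epithelia, read 12.73, 12.55 and 12.68 in the control and 13.10, 13.04 and 12.63 in the arrays labelled GATA3. Replicates 1 and 2 were above all controls, but replicate 3 lay among them, and KRT7 did not pass (log2 change 0.27, 95% interval -0.06 to 0.60, adjusted p 0.193). Without GATA3 replicate 3 it passed, with a change of 0.42 and an adjusted p of 0.0114, as it did when arrays were shifted to a common 75th percentile (0.36, adjusted p 0.0156). KRT20, the simple keratin of intestine and urothelium, was at the floor of 2.16 on all arrays.

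Of the basal pair, KRT14 rose and KRT5 was not detected, so whether they moved together could not be read. KRT14, the type I keratin of basal and myoepithelial cells, read 2.43, 2.31 and 2.40 in the GFP control and 7.13, 6.96 and 6.49 in the arrays labelled GATA3. It went from under the detection level on every control array to clearly over it on every array labelled GATA3, a rise of at least 7.25-fold (log2 change 4.48, SE 0.17, adjusted p 6.17e-05). KRT5, the type II partner of KRT14 in basal cells, was at the floor of 2.16 on all 6 arrays. KRT15, another type I keratin of basal cells and hair-follicle stem cells, read 5.81, 5.71 and 5.90 in the control and 6.73, 6.56 and 6.79 in the arrays labelled GATA3. The groups did not overlap (log2 change 0.88, SE 0.10, 1.84-fold, adjusted p 0.00225). KRT15 adjoins KRT19 in RefSeq, and KRT14 lies between KRT9 and KRT16 in the same type I order. KRT9, the keratin of palm and sole skin, was at the floor, and KRT16, which is induced in wounded epidermis, read 2.21 to 2.55, so neither neighbour of KRT14 was detected. KRT14 is close in sequence to other type I keratins, and which of them its probes could also match was not examined.

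Keratins of differentiating and cornifying epithelia were mostly undetected. KRT1, KRT2, KRT4, KRT9, KRT13 and KRT24 stayed between 2.16 and 2.93 on every array. KRT10, the suprabasal type I keratin of epidermis, was bright and had 3 tested probe sets. The brightest of them lay between 11.87 and 12.13 on all arrays. It read the same value, 11.9977, on GFP control replicate 3 and on GATA3 replicates 1 and 2. The groups overlapped, and the change was 0.09 with a 95% interval of -0.06 to 0.23 (adjusted p 0.328). The other KRT10 probe sets changed by 0.02 and 0.14 (adjusted p 0.877 and 0.159 by limma). On the latter, 207023_x_at, the groups did not overlap, with 11.05 to 11.21 in the control and 11.22 to 11.34 in the arrays labelled GATA3. The usual type II partner KRT1, as said, was not detected, so its level could not be compared with that of KRT10.

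KRT80, a type II keratin of many epithelia that is found near desmosomes, read 10.60, 10.57 and 10.66 in the GFP control and 10.89, 10.77 and 10.76 in the arrays labelled GATA3. It passed by a narrow margin (log2 change 0.19, SE 0.05, 1.14-fold, adjusted p 0.0488). Left out in turn, each array but GATA3 replicate 3 ended the call, with adjusted p-values of 0.129, 0.151 and 0.0834 without GFP control replicates 1, 2 and 3 and of 0.0995 and 0.0936 without GATA3 replicates 1 and 2. KRT80 adjoins KRT7 in RefSeq. KRT23, the hair keratin KRT31 and the hair-follicle keratin KRT75 stayed at 2.16 to 2.17.

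**Figure D2:**
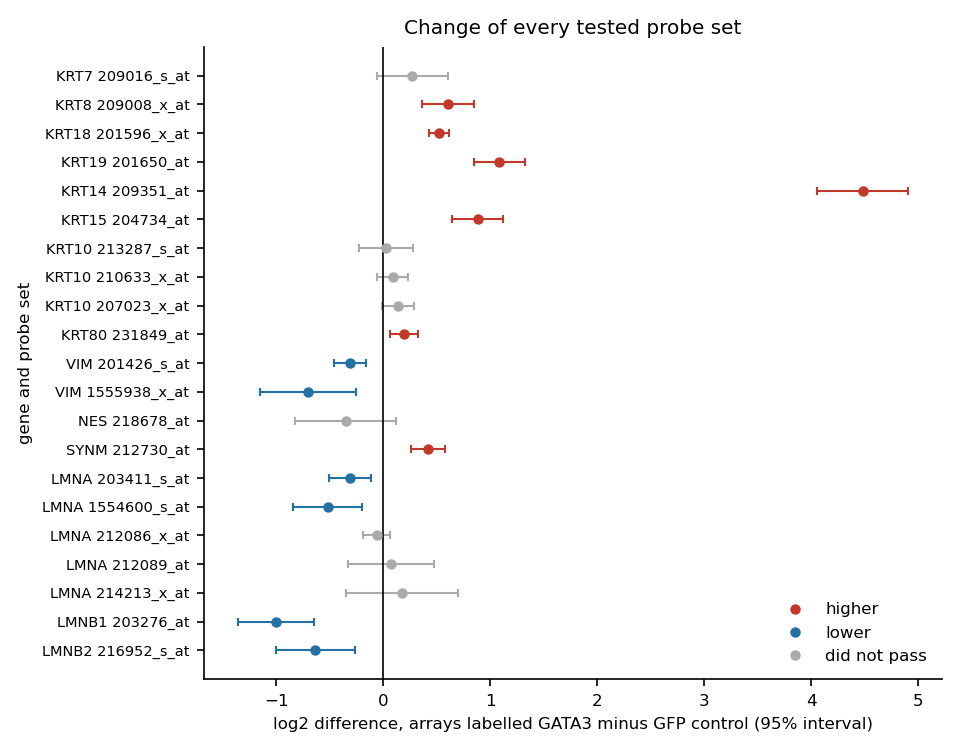
Log2 difference between the arrays labelled GATA3 and the GFP control (horizontal axis) for each of the 21 tested probe sets of the members, with its 95% interval; red probe sets were higher, blue lower and grey did not pass an adjusted p of 0.05. KRT14 stands at 4.48, a fitted value from controls under the detection level, and 4 of the 5 other keratins that passed lie between 0.52 and 1.08, while the 5 LMNA probe sets fall on both sides of 0.

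Vimentin, the filament of mesenchymal cells and the usual counterpart of keratins in this cell line, fell slightly from a very high level. VIM probe set 201426_s_at read 15.06, 15.05 and 14.98 in the GFP control and 14.79, 14.77 and 14.59 in the arrays labelled GATA3. All arrays labelled GATA3 were below all controls (log2 change -0.32, SE 0.06, 1.24-fold lower, adjusted p 0.0158). With arrays shifted to a common 75th percentile the change was smaller, at -0.23 (adjusted p 0.0488 by limma). The dimmer probe set 1555938_x_at read 6.01, 6.20 and 6.68 in the control and 5.61, 5.58 and 5.57 in the arrays labelled GATA3 (log2 change -0.71, SE 0.18, 1.64-fold lower, adjusted p 0.0381). The first call was lost without GFP control replicate 1 (adjusted p 0.0618) or 2 (0.0663), and the second without GFP control replicate 2 (0.0940) or GATA3 replicates 1 (0.0899), 2 (0.104) or 3 (0.0776). The other type III genes, DES of muscle, GFAP of astrocytes and PRPH of peripheral neurons, read 2.16 to 3.09 and were not detected.

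Of the type IV genes, SYNM changed past the threshold and NES did not. SYNM encodes synemin, which assembles with vimentin or desmin and links them to other structures. It read 8.10, 8.08 and 8.14 in the GFP control and 8.59, 8.47 and 8.51 in the arrays labelled GATA3. The groups lay apart (log2 change 0.41, SE 0.06, 1.33-fold, adjusted p 0.00777). NES, which encodes nestin, a vimentin partner of progenitor cells, read 5.10, 4.59 and 4.43 in the control and 4.52, 4.28 and 4.26 in the arrays labelled GATA3. These values lie near the detection level and overlap (log2 change -0.35, 95% interval -0.82 to 0.12, adjusted p 0.229). The neurofilament genes NEFL, NEFM and NEFH and the neuronal gene INA read 2.16 to 2.50.

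Of the lamins, the nuclear members, LMNB1 was the one whose fall passed in every fit with 1 array left out. LMNB1, which encodes lamin B1, a constant part of the lamina whose transcript is known to drop when cells stop dividing for good, read 10.94, 11.45 and 11.32 in the GFP control and 10.11, 10.34 and 10.24 in the arrays labelled GATA3. The highest array labelled GATA3 was 0.60 below the lowest control (log2 change -1.01, SE 0.14, 2.01-fold lower, adjusted p 0.00584). LMNB2, which encodes lamin B2, read 11.52, 11.30 and 11.46 in the control and 11.02, 10.87 and 10.48 in the arrays labelled GATA3. Its groups did not overlap either (log2 change -0.64, SE 0.15, 1.56-fold lower, adjusted p 0.0298). The LMNB2 call was lost without any 1 of the GFP control replicates 1, 2 and 3 (adjusted p 0.0689 to 0.103) or without GATA3 replicate 2 (0.0733). The call of LMNB1 held in all 6 such fits, with a change of -1.15 to -0.90.

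LMNA, whose transcripts encode lamins A and C, gave readings that depended on the probe set. The brightest, 203411_s_at, read 12.98, 12.94 and 12.87 in the control and 12.70, 12.71 and 12.45 in the arrays labelled GATA3 (log2 change -0.31, SE 0.08, adjusted p 0.0378). With a common 75th percentile its change was -0.22 (adjusted p 0.0407 by limma). Probe set 1554600_s_at read 12.34, 12.29 and 12.26 in the control and 11.94, 11.91 and 11.48 in the arrays labelled GATA3 (log2 change -0.52, SE 0.13, adjusted p 0.0366). In both, the arrays labelled GATA3 lay below all controls. The 3 other tested LMNA probe sets overlapped between groups and did not pass, with changes of -0.06, 0.07 and 0.17 (adjusted p 0.381, 0.773 and 0.566). GATA3 replicate 3 set these probe sets apart most: compared with the mean of replicates 1 and 2 it was 0.25 and 0.45 lower on the first pair (-0.25 and -0.45), but higher by 0.06 on 212086_x_at, by 0.55 on 212089_at and by 0.72 on 214213_x_at. Without that array the first pair was still lower, by 0.23 and 0.37 (-0.23 and -0.37, adjusted p 0.0158 and 0.00321), and the other LMNA changes were -0.08, -0.11 and -0.07. The call of 203411_s_at was lost without any 1 of the 5 other arrays (adjusted p 0.117, 0.120 and 0.0860 without GFP control replicates 1, 2 and 3, and 0.0566 and 0.0618 without GATA3 replicates 1 and 2). That of 1554600_s_at was lost without any 1 GFP control array (0.103 to 0.113) or without GATA3 replicate 2 (0.0608). The direction of LMNA is therefore given only by probe set.

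**Figure D3:**
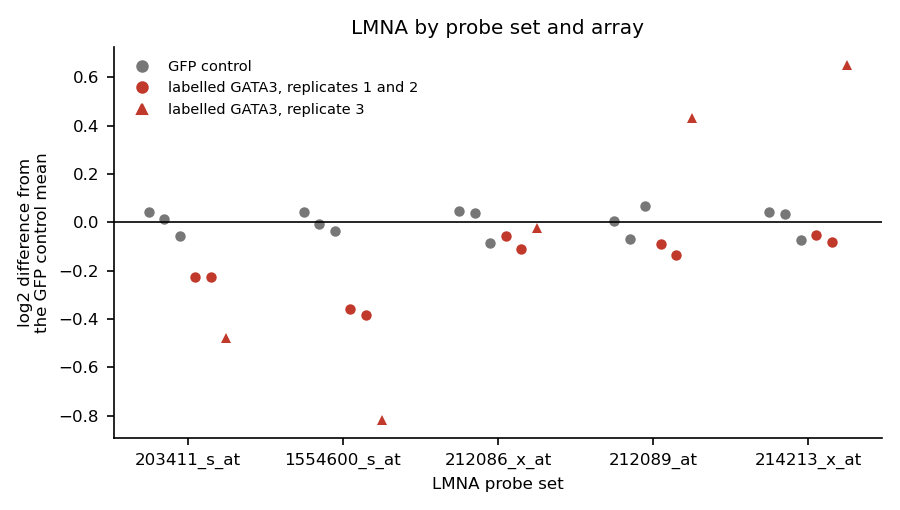
The 5 tested LMNA probe sets (horizontal axis) on each of the 6 arrays, as log2 difference from the mean of the GFP control arrays on that probe set (vertical axis); grey points are the GFP control and red points the arrays labelled GATA3. GATA3 replicate 3 (triangle) is the lowest array on the left pair of probe sets and the highest on the right pair.

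The 33 member probe sets that were not tested were mostly flat. On 23 of them all 6 arrays agreed within 0.01. GATA3 replicate 3 was more than 0.2 above each other array on 4 of the 33, which are probe sets of KRT7 (3.77), KRT19 (4.57), KRT16 (2.55) and KRT24 (2.93), and no other array was so on any. Of these 4 readings, only that of KRT19 exceeded the detection level. A probe set annotated with DES together with SUPT20H, which is no member, read 6.49 ± 0.13 in the control against 6.77 ± 0.54 (SD, n = 3) in those labelled GATA3 (adjusted p 0.493).

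Promoters were read from RefSeq on GRCh38.p14, as 300 bases from 250 before to 50 after each start, for 19 of the 39 genes, 8 of them tested. Motifs searched on both strands were the GATA motif (AGATAA or TGATAA, or either with G as its last letter) and the E-box CAGGTG, which ZEB1 and SNAI2 are known to bind and which shares no overlap with the former. A GATA motif was found in 25% of all 35116 promoters and in 8 of 22 promoters of the 19 genes, and the E-box in 20.6% of all and in 5 of the 22. Among the tested genes that were read, the GATA motif was in promoters of LMNB1, NES and KRT10, and the E-box in those of LMNA and SYNM. No promoter was read for the tested keratins KRT7, KRT14, KRT15, KRT18, KRT19 and KRT80, so whether they hold either motif is not known here. LMNB1 has 2 promoters in the table and LMNA 3, and in each gene only 1 holds its motif; the LMNB1 promoter shown is the one with the match. LMNB1 is shown as the gene with the clearest fall, SYNM as a type IV gene that rose, and KRT8 and VIM as the epithelial and mesenchymal filament genes. Capitals mark the GATA motif in LMNB1, at position -197 from the start, and the E-box in SYNM, at -159 and read on the opposite strand. The windows shown for KRT8 and VIM hold neither. Other starts of KRT8 and VIM, if any, were not read. A match is only a description of the letters.
LMNB1, chr5:126776373-126776672, + strand: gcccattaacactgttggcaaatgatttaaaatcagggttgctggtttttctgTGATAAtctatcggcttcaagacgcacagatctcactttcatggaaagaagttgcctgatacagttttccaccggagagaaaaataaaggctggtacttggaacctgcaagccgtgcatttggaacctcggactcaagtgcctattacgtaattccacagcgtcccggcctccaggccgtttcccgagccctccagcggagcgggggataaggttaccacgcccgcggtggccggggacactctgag
SYNM, chr15:99104830-99105129, + strand: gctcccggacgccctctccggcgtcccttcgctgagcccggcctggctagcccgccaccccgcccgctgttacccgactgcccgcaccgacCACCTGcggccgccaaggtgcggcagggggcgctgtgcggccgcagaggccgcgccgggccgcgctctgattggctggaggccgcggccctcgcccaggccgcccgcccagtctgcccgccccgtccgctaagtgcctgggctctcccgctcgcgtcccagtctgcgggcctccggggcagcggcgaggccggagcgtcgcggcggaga
KRT8, chr12:52926420-52926719, - strand: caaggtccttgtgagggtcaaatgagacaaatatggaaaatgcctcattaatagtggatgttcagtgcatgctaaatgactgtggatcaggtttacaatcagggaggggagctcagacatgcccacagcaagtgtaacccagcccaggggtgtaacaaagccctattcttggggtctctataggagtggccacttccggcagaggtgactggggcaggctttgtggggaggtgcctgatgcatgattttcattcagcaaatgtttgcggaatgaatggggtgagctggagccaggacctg
VIM, chr10:17227991-17228290, + strand: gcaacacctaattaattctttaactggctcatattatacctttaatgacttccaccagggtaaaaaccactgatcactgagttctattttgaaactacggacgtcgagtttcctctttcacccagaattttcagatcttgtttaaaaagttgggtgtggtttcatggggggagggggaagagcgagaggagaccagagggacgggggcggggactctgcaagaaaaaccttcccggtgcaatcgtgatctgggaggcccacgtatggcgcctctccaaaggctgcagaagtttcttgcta

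Genes that tie filaments to junctions were in part higher. Of 23 linkers on a list (plakins, plakophilins, desmosomal cadherins and hemidesmosome proteins), 18 were tested, 11 were higher, none was lower by limma (1, TCHP, at an unadjusted p under 0.05) and 7 did not pass, with a median log2 change of 0.36. Of all genes tested 14.8% were higher, with a median of -0.02, but the list was chosen with earlier results of these data known. EPPK1 and PPL were tested only because they were bright in the arrays labelled GATA3; of the 16 linkers detected in both groups, 9 were higher and the median was 0.30. With probe sets free of the suffix for shared probes, 4 of 11 linkers were higher and 1 was lower. CD151 (-0.09), PKP4 (-0.02) and TCHP (-0.24) had changes below 0 that did not pass. EPPK1, which encodes epiplakin, a keratin-binding plakin, was at the floor of 2.16 on all GFP control arrays and read 7.58, 7.39 and 6.95 in those labelled GATA3, a rise of at least 9.89-fold (adjusted p 3.10e-05). JUP, which encodes plakoglobin, the link between desmosomal cadherins and desmoplakin, read 7.94, 7.84 and 8.13 in the control and 10.33, 10.34 and 9.87 in those labelled GATA3, 4.63-fold higher (adjusted p 0.000494). PPL, which encodes periplakin, read 3.65 ± 0.04 in the control and 5.50 ± 0.13 in those labelled GATA3 (SD, n = 3), at least 2.83-fold higher, and the plakophilin gene PKP3 read 7.93 ± 0.07 and 9.56 ± 0.19 (SD, n = 3), 3.08-fold higher. Desmoplakin, DSP, which anchors keratins at desmosomes, rose by 0.96 (adjusted p 0.00218).

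The plakin gene PLEC, which was singled out after its values were seen, went the other way. PLEC encodes plectin, which binds vimentin as well as keratins. Its brightest probe set read 11.58, 11.56 and 11.54 in the control and 10.61, 10.91 and 8.52 in the arrays labelled GATA3, and with replicate 3 so low it did not pass (log2 change -1.55, SE 0.63, adjusted p 0.135). Its other tested probe set, 201373_at, read 10.17, 10.24 and 10.30 in the control and 9.78, 9.90 and 9.72 in the arrays labelled GATA3 (log2 change -0.44, SE 0.07, adjusted p 0.00696). Without GATA3 replicate 3, 2 linkers were lower, PLEC and TCHP, the gene of the keratin-binding protein trichoplein.

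Further lists showed little of a common direction. Of 33 other intermediate filament genes, 28 had a probe set, and 24 of these were not over the detection level on any array. Only BFSP1 and IFFO2 were tested, and neither passed in limma (BFSP1 0.39, unadjusted p 0.0354, adjusted p 0.101). IFFO2, the brighter, read 8.46 ± 0.03 in the control against 8.35 ± 0.13 (SD, n = 3) in those labelled GATA3 (adjusted p 0.365), and passed without GATA3 replicate 3 (log2 change -0.19, adjusted p 0.0408). Cornified envelope and keratinocyte differentiation genes were undetected in 15 of 18 with a probe set. None of the 3 tested passed in limma, nor had any an unadjusted p under 0.05. KLK7, 1 of the 3, read 5.46 on all 6 arrays, so its test could not have passed. KLF4 read 10.46 ± 0.02 and 10.49 ± 0.03 (SD, n = 3), with an adjusted p of 0.599 by limma.

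Of 15 transcription factors known to act on keratin genes, 10 were tested, 1 was higher, 3 were lower and 6 did not pass, with a median of -0.02. Among all genes tested, 14.8% were higher and 14.5% lower. EHF, an epithelial ETS factor, read 9.90 ± 0.03 in the control and 7.88 ± 0.31 in those labelled GATA3 (SD, n = 3), 4.06-fold lower (adjusted p 0.000713). ZEB1, a repressor of epithelial genes, was 3.77-fold lower, with 11.06 ± 0.05 against 9.14 ± 0.05 (SD, n = 3), and SP1, a general activator, was 1.46-fold lower, with 10.10 ± 0.10 against 9.55 ± 0.06 (SD, n = 3). TFAP2A, which encodes AP-2 alpha, was 1.76-fold higher, with 8.41 ± 0.17 against 9.22 ± 0.14 (SD, n = 3, adjusted p 0.00627). The factors GRHL2, GRHL3, OVOL1 and ELF3 were not over the detection level on any array. TP63 had no probe set of a single symbol and was not measured here.

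Partners of the lamina did not change in 1 direction. Of 17 tested, 4 were higher, 3 lower and 10 did not pass, with a median of -0.05. The shares over all tested genes were 14.8% higher and 14.5% lower, so these small counts are not read as a trait of the list. TMPO, which encodes the lamin-binding LAP2 proteins, fell from 13.06 ± 0.02 to 12.72 ± 0.04 (SD, n = 3, log2 change -0.34, adjusted p 0.00138), and LBR, the lamin B receptor gene, from 12.34 ± 0.18 to 11.94 ± 0.05 (SD, n = 3, log2 change -0.40, adjusted p 0.0329). SUN2, which connects the lamina to the cytoskeleton, rose from 9.26 ± 0.10 to 9.69 ± 0.19 (SD, n = 3, log2 change 0.43, adjusted p 0.0452), and EMD, which encodes emerin, from 8.62 ± 0.11 to 8.97 ± 0.11 (SD, n = 3, log2 change 0.36, adjusted p 0.0351). The calls of LBR, SUN2 and EMD each held in only 1 of the 6 fits with 1 array left out (without GFP control replicate 1 for LBR, GATA3 replicate 3 for SUN2 and GATA3 replicate 2 for EMD), with adjusted p-values up to 0.110, 0.143 and 0.107. The number of higher partners was 1 without any 1 GFP control array and 2 without GATA3 replicate 1 or 2. With a common 75th percentile 1 partner was lower, and TMPO had an adjusted p of 0.0636, or of 0.0599 as the median of its probe sets.

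**Figure D4:**
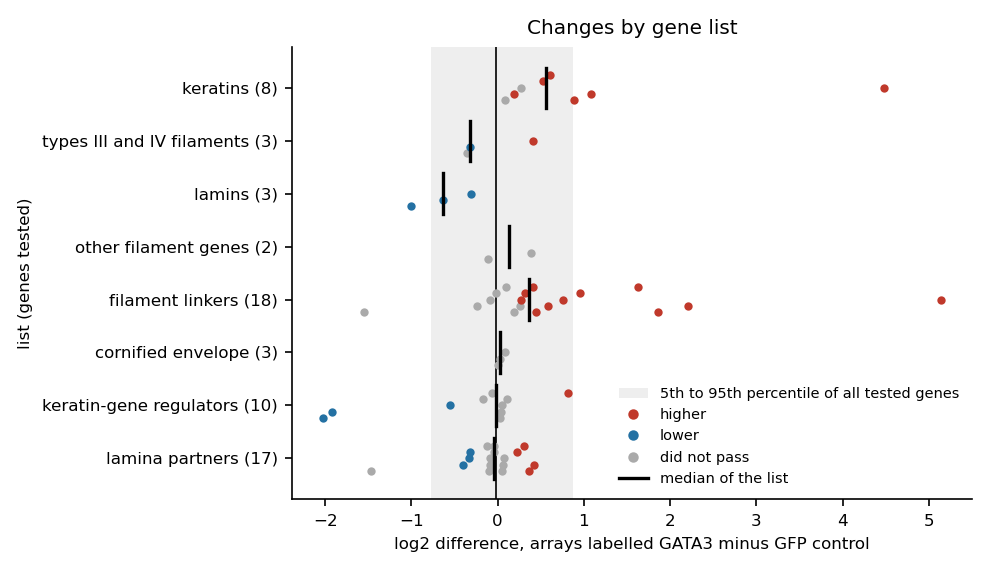
Log2 difference between the arrays labelled GATA3 and the GFP control (horizontal axis) for each tested gene of the keratins, the other filament types, the lamins and the 5 further lists, with the number of genes tested in brackets; colours give the call, thick bars the median of each list, and the grey band the 5th to 95th percentile of all 10814 tested genes, -0.78 to 0.87. Keratins (median 0.56) and filament linkers (median 0.36) lie mostly to the right of 0. The 3 lamins, each by its brightest probe set alone (median -0.64), lie to the left.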

How the data were processed

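Biotin-labelled RNA of 6 samples was hybridised to single-colour Affymetrix arrays. The log2 values deposited by the authors were made with GCRMA, as the submitters' processing notes name it; its version is not given in the sources used here. The log2 scale was read from the range, since no header or label states it. GCRMA subtracts a background modelled from probe sequence, which leaves a floor and repeated low values. Some values over the detection level repeat between arrays as well, among them those of KRT10 and KLK7. Values were used as deposited; 62 control probe sets were left out, and 23785 of 54613 probe sets were tested. Precision is limited by 3 arrays per group. limma 3.58.1 in R 4.3.3 (lmFit, eBayes with intensity trend, no covariates) compared GATA3 with GFP control, with Benjamini-Hochberg adjustment over all tested probe sets. Each gene was read by whichever of its tested probe sets had the highest mean; all tested members were named, and up to 4 genes of each of the 5 further lists by size of change among those called, or the brightest where none was. DSP, TCHP, CD151, PKP4, PLEC, BFSP1, KLK7 and MSN were added once their values were known. Where a whole group lay under 4, the fold was set against 4 and given as "at least". Members and lists were chosen with earlier results of these data known. The fit was tested on data simulated with independent normal noise, which does not cover the floor or an outlying array. Alternatives were 3 scalings, 3 filters, no trend, array weights, a replicate block, each array left out, and 2 ways to read a gene. The gene IDs of all 54 member probe sets matched RefSeq.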

Additional observations from a re-analysis of the deposited data

Results flagged for a closer look

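A keratin signal lay outside the members, in a probe set whose annotation carries more than 1 symbol, KRT34 and LOC100653049. Probe set 206969_at read 3.01, 2.84 and 3.42 in the GFP control and 8.82, 8.62 and 8.37 in the arrays labelled GATA3. It was under the detection level on all controls and over it on all arrays labelled GATA3, a fitted log2 change of 5.51 (SE 0.19, adjusted p 4.35e-05 by limma) and at least 24.3-fold higher. Like KRT14, it was tested only because it was bright in the arrays labelled GATA3. It passed in all 15 alternatives run for it, but these use the same arrays and are no independent support. KRT34 is a type I hair keratin, and which of the symbols the probes read is not known here.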

How the results depend on the processing

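The number of probe sets called, 6027, was 3613 without a filter, 9387 with array weights and 3688 to 7333 with each array left out in turn. Members called higher, 7, numbered 6 to 8 with each array left out. Members called lower, 4, numbered 1 to 4 with each array left out (1 without GFP control replicate 1 or 2, and 2 without GFP control replicate 3 or GATA3 replicate 2), 1 without a filter and 1 with probe sets free of the suffix for shared probes. The 22 calls in the further lists numbered 14 with such probe sets and 15 to 24 with each array left out. KLF4 reversed to -0.24 (adjusted p 0.0293) as the median of its probe sets; the cause was not tested. The calls of 9 tested members (KRT8, KRT10, KRT14, KRT15, KRT18, KRT19, NES, SYNM and LMNB1) were the same in every alternative in which they were tested. With the median of its probe sets, LMNA did not pass (-0.23, adjusted p 0.221). Without a filter, VIM, LMNA, LMNB2 and KRT80 did not pass, nor did LMNA (0.0544) and KRT80 (0.0684) without the intensity trend. Array weights were estimated gene by gene, since limma's default did not converge. The labels do not say that replicate numbers pair arrays, and deviations of same-numbered arrays correlated at -0.13, 0.16 and -0.11. With a replicate block, 4128 probe sets were called, 6 members were higher and 3 lower, and 17 calls stood in the further lists; KRT80 (adjusted p 0.112) and LMNB2 (0.0554) did not pass. Values under 4 set a limit: levels of the 19 undetected members could not be compared.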
